A study of Rattus norvegicus with 12 samples.

Results

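The genes described here encode proteins of the intercalated disc, the junction that joins heart muscle cells end to end, and of its gap junctions. They were taken by gene symbol from a list of 10: the connexins Gja1, Gja5 and Gjc1, the cadherin Cdh2, the desmosome genes Dsp, Jup, Pkp2, Dsg2 and Dsc2, and the scaffold gene Tjp1. Of these, 9 were found among 32883 genes, and all 9 passed the filter on low values, which kept 13793 genes. Pkp2 is not analysed here. RNA was sequenced from cardiomyocytes of Sprague-Dawley rats 1 to 3 days old, cultured with AraC, which stops dividing cells, until the day before treatment. The 6 groups held 2 libraries each, 12 in all, and every treatment lasted 24 h. The vehicle group received acetic acid and DMSO, the ET-1 group endothelin-1 at 100 nM with DMSO, and the PE group phenylephrine, an agonist of alpha-1 adrenergic receptors, at 10 µM with DMSO. The other 3 groups received the same vehicle, ET-1 or PE with JQ1, a blocker of the bromodomains of BET proteins, at 1 µM. Nothing in the labels says whether the 2 replicates of a group came from separate cultures, and the p-values below therefore rest on a spread between libraries that could be technical.

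Gap junctions are channels built of connexins that pass current from cell to cell, and in ventricular muscle most of them are built of the product of Gja1. Adherens junctions, built on N-cadherin (Cdh2), tie the contractile filaments of neighbouring cells together, and desmosomes tie their desmin filaments, through desmosomal cadherins (Dsg2, Dsc2), plakoglobin (Jup) and desmoplakin (Dsp). Inherited defects of desmosomal genes cause arrhythmogenic cardiomyopathy, and loss of connexin from the disc is known in hypertrophied and failing hearts. ET-1 and PE both act on receptors coupled to Gq and are standard ways to make cultured neonatal cardiomyocytes hypertrophy.

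Promoter sequences are given for Gja1, Gja5 and Dsp, the 3 members with the largest falls under the agonists, a choice made after their values were seen. RefSeq promoter records (build GRCr8) were found for 7 of the 9 members. Each line gives the 250 bases before the RefSeq start, 5′ to 3′ on the strand of the gene, with matches to a searched motif in capitals.
Gja1: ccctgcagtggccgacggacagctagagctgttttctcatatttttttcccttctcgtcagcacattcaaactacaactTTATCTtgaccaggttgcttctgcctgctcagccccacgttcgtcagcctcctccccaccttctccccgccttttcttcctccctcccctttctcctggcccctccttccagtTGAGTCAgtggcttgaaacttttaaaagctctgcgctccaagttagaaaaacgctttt
Gja5: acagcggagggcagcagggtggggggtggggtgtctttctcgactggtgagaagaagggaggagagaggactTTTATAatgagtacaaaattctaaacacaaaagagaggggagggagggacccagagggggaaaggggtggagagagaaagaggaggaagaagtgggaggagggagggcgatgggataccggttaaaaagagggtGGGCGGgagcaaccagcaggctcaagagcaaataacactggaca
Dsp: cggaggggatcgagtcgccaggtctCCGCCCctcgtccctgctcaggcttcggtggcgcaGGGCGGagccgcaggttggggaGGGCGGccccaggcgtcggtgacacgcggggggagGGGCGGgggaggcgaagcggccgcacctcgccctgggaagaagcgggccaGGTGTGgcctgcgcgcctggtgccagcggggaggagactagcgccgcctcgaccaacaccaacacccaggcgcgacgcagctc
The Gja1 sequence is chr20:36302314-36302563 on the plus strand, the Gja5 sequence chr2:187290977-187291226 on the plus strand and the Dsp sequence chr17:26877122-26877371 on the minus strand. Both strands were searched for 7 motifs. Gja1 held an AP-1 site (TGANTCA) from base -58 to -52 and, on the opposite strand, a GATA site (AGATAA) from -171 to -166, counted from the RefSeq start. Among 33469 rat promoter windows of the same length, 6.3% held that AP-1 site and 10.3% that GATA site. Gja5 held a GC box (GGGCGG) from -44 to -39 and, on the opposite strand, a TATA box (TATAAA) from -178 to -173, motifs found in 30.5% and 12.9% of all windows. Dsp held 4 GC boxes and a T-box motif (GGTGTG), the latter found in 15.4% of all windows. The NKX2-5 site (CAAGTG), which 11.7% of all windows hold, and the E-box (CACGTG), which 5.6% hold, had no match in these 3 sequences. No matched motifs overlapped. The GC content was 75.2% for Dsp, 51.2% for Gja1 and 54.8% for Gja5, and its median over all windows was 51.2%. A match is a run of letters and not a shown binding site, and no binding was measured.

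Levels are given as rescaled FPKM, fragments scaled to transcript length and library size with a further scaling between libraries, so they can be compared between genes. Averaged over the 12 libraries, Cdh2 (130.1) and Gja1 (123.6) were highest, followed by Dsp (81.9) and Jup (58.7). Gjc1 (19.6), Tjp1 (17.6), Gja5 (16.2) and Dsg2 (15.0) lay close together, and Dsc2 (7.89) was lowest. Gja5 spanned the widest range among libraries, 15.28 times from lowest to highest, and Cdh2 the narrowest, 1.53 times. The mean coverage of a member ran from 7.02 reads per base, for Gja5, to 782.9, for Gja1, and the libraries held 2.341 to 2.965 Gb of covered transcript bases. In bulk samples such as these, fewer cells of a type and less RNA per cell cannot be told apart.

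**Figure D1:**
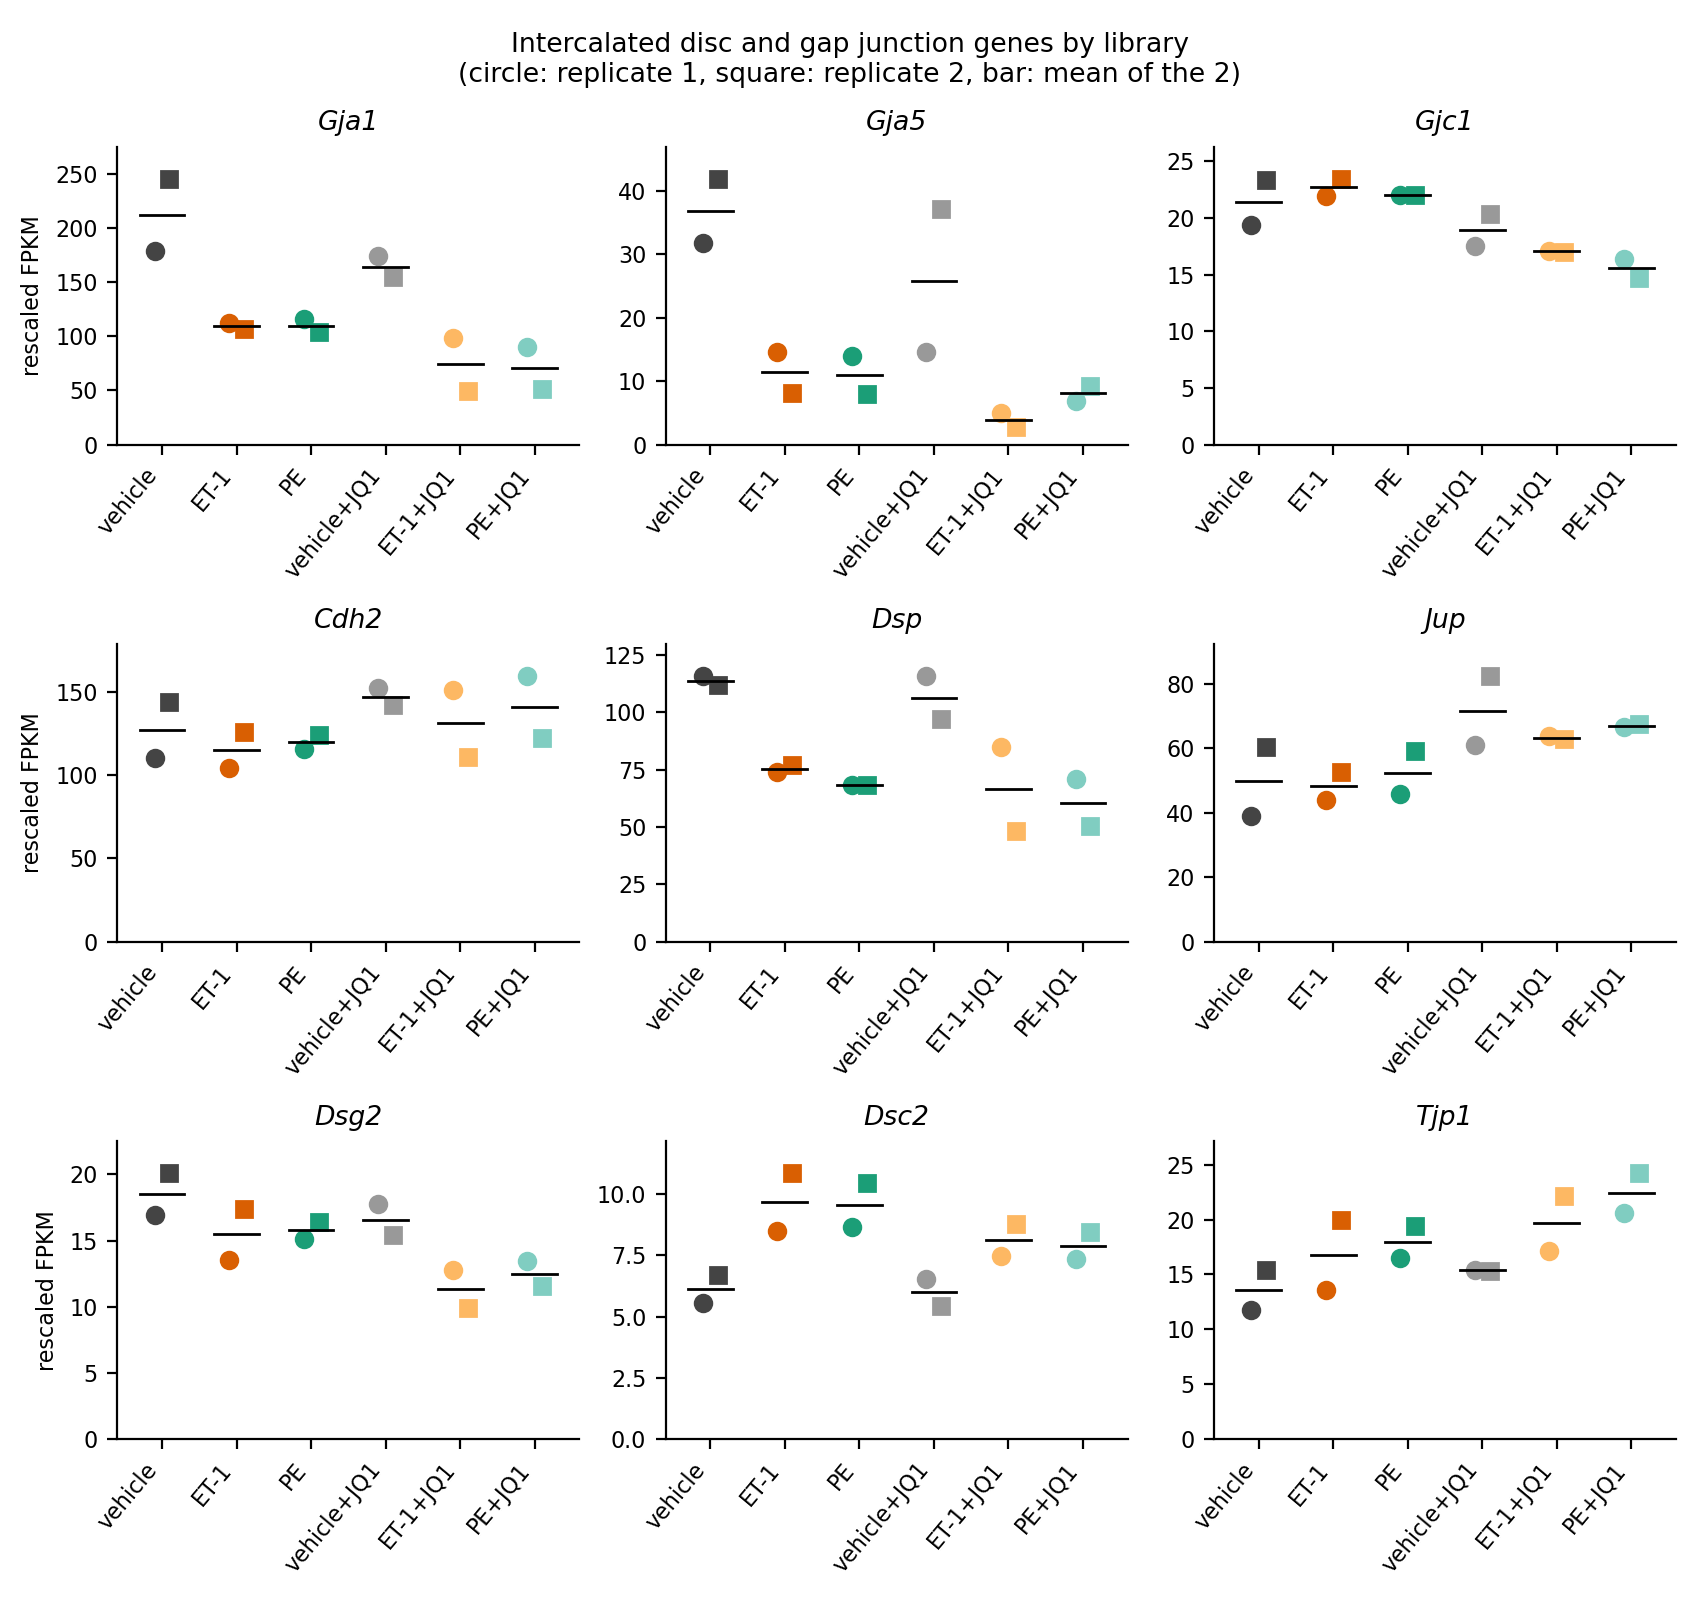
Level of each of the 9 members (vertical axis, rescaled FPKM, linear from 0) in the 6 groups (horizontal axis), with replicate 1 as a circle, replicate 2 as a square and their mean as a bar. The 8 ET-1 and PE libraries lie below the 4 vehicle libraries for Gja1 and Dsp and above them for Dsc2, and the 6 JQ1 libraries lie above the 6 DMSO libraries for Jup.

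Gja1 and Gja5 fell in the comparison that averaged both agonists, and Gjc1 did not pass the test there. Gja1, on chromosome 20 (37876650 to 37889089, rn6), encodes connexin 43, the main connexin of working heart muscle. Its level in replicates 1 and 2 was 179 and 246 in vehicle, 112 and 107 in ET-1, and 116 and 104 in PE. With JQ1 it was 174 and 155 in vehicle, 98.7 and 49.7 in ET-1, and 90.0 and 51.4 in PE. All 8 agonist libraries (49.7 to 116) lay below all 4 vehicle libraries (155 to 246). Among all genes tested, 5.89% did not overlap between those 8 and 4 libraries, and among the members 3 of 9 did not, Gja1, Dsp and Dsc2. With both agonists averaged, without and with JQ1, Gja1 fell by 1.09 ± 0.21 (SE) on the log2 scale, 0.470 times the vehicle level (adjusted p = 0.012). This averaged comparison and the averaged one of JQ1 were added after the values were seen. The Gja1 call was lost without vehicle replicate 2 (adjusted p = 0.059).

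Gja5, on chromosome 2 (199162745 to 199184939, rn6), encodes connexin 40, known from atrial muscle, the conduction system and the endothelium of arteries. Its level was 31.7 and 41.9 in vehicle, 14.6 and 8.14 in ET-1, and 14.0 and 7.99 in PE. Under JQ1 it was 14.5 and 37.1 in vehicle, 5.04 and 2.74 in ET-1, and 6.92 and 9.29 in PE. The agonist and vehicle libraries overlapped only where vehicle with JQ1 replicate 1 (14.5) met ET-1 replicate 1 (14.6). In the averaged comparison Gja5 fell by 1.85 ± 0.30 (SE), 0.277 times the vehicle level (adjusted p = 0.0067), a call kept without any 1 of the 12 libraries. Only 0.1% of all genes tested had a lower averaged difference. Of 10 endothelial markers 9 were found, which together summed to 4.06 to 10.3, above Gja5 in 3 of the 12 libraries (both of ET-1 with JQ1, and PE with JQ1 replicate 1). Egfl7 made up most of that sum with JQ1, at 5.74 to 7.51, and Cdh5, Vwf and Cldn5 were at most 0.287, 0.118 and 0.061 in any library. The part of endothelial cells in the Gja5 result was not tested.

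Gjc1, on chromosome 10 (90781402 to 90912287, rn6), encodes connexin 45, known from early heart muscle and the nodes. Its level was 19.4 and 23.4 in vehicle, 22.0 and 23.4 in ET-1, and 22.0 and 22.1 in PE. With JQ1 added it was 17.5 and 20.4 in vehicle, 17.1 and 17.0 in ET-1, and 16.4 and 14.7 in PE. The agonists did not separate the libraries, and the averaged agonist difference was -0.07, with a 95% interval from -0.23 to 0.08. The sign for each agonist alone without JQ1 turned from positive to negative on the deposited FPKM scale. JQ1 lowered Gjc1 in ET-1, by 0.40 ± 0.11 (SE; adjusted p = 0.022), and in PE, by 0.49 ± 0.11 (adjusted p = 0.0097). In vehicle the difference was -0.17 (adjusted p = 0.28), and the difference between these effects did not pass the test (adjusted p of 1 for both agonists). Leaving out any 1 of the 4 libraries ended the call in ET-1 (adjusted p from 0.056 to 0.11), and leaving out PE with JQ1 replicate 2 ended that in PE (adjusted p = 0.065). Of the 2 listed transcripts of Gjc1, that of 1594 nt was at 11.4 to 16.0 with DMSO and 0.244 to 10.7 with JQ1. The longer, of 1742 nt, was at 6.73 to 9.85 with DMSO and 6.76 to 14.5 with JQ1, and took 30.6% to 98.3% of the level. With only the highest transcript of each gene, both calls were lost.

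The make-up of the transcripts of these 3 connexins differed between the libraries accordingly. Gja1 made up 68.2% to 84.5% of the sum of the 3 connexins, with no separation by group. Gja3, whose level is given below, was not part of that sum, so these are not shares of all connexin transcripts. The ratio of Gjc1 to Gja1 was 0.0951 to 0.132 in the 4 vehicle libraries and 0.173 to 0.342 in the 8 agonist libraries. Gja5 was above Gjc1 in 3 of the 4 vehicle libraries, with ratios of 0.829 to 1.82, and below it in all 8 agonist libraries, with ratios of 0.161 to 0.665. These ratios were not tested. Of the 36 pairs of members, 13 had a ratio with no overlap between the 8 agonist and 4 vehicle libraries. Most of these pairs hold Gja1, Dsp or Dsc2, which did not overlap on their own. The share among all pairs of genes was not computed, so this count is a description. Gja5 to Gja1, Jup to Dsp and Dsg2 to Dsp were among the pairs that overlapped.

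**Figure D2:**
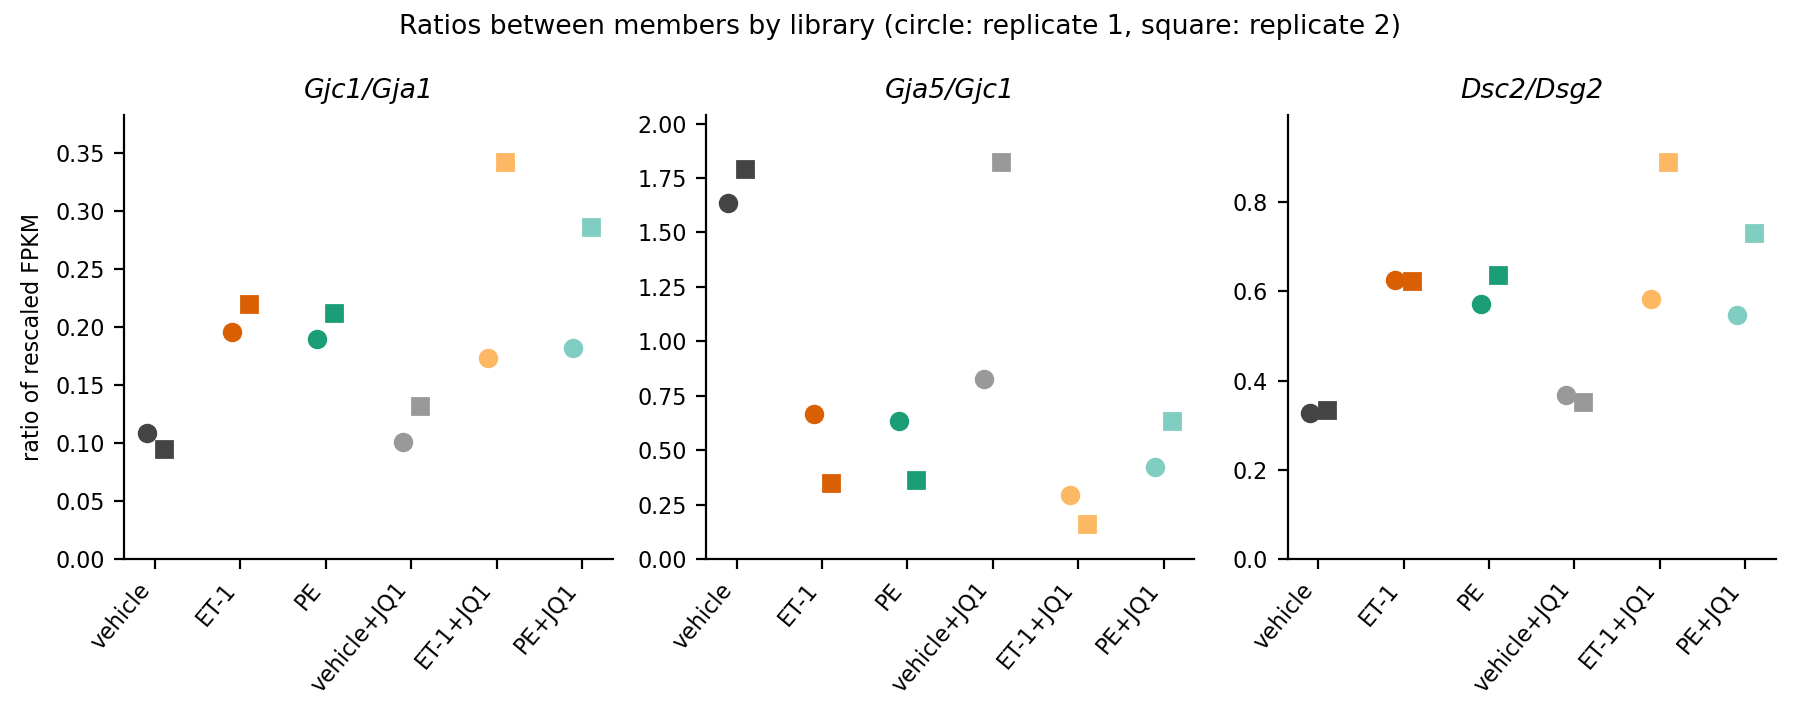
Ratio of the rescaled FPKM of 2 members (vertical axis, linear from 0) in each library by group (horizontal axis), with replicate 1 as a circle and replicate 2 as a square. The panels show 3 of the 13 pairs with no overlap, and in each the 8 agonist libraries do not overlap the 4 vehicle libraries: Gjc1 to Gja1 is at least 0.173 against at most 0.132, Gja5 to Gjc1 at most 0.665 against at least 0.829, and Dsc2 to Dsg2 at least 0.547 against at most 0.368.

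Cdh2, the cadherin of the adherens junction, passed the test in no comparison. Its level was 110 and 144 in vehicle, 104 and 126 in ET-1, and 116 and 124 in PE. In the JQ1 groups it was 152 and 142 in vehicle, 151 and 111 in ET-1, and 159 and 122 in PE. The 8 agonist libraries overlapped the 4 vehicle libraries, and the 6 JQ1 libraries the 6 DMSO libraries. The averaged difference was -0.12 for the agonists (95% interval from -0.40 to 0.17) and 0.21 for JQ1 (from -0.06 to 0.47). JQ1 against DMSO was 0.46 to 0.53 in replicate 1 and -0.18 to -0.02 in replicate 2.

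Most genes of a list of adherens junction and linker proteins were higher with the agonists. Of its 20 genes, 19 were tested. In the averaged agonist comparison 13 rose and 0 fell, where 9.01% of all genes tested rose and 10.8% fell. This and the other lists were chosen with earlier results of these data known. The averaged comparison was added after the values were seen, so list counts in that comparison are a description and not a test. Of the genes called in that comparison 45.5% rose, and 28.9% on the deposited FPKM scale, on which 11 of the 19 rose. Between 5 and 8 of the 19 rose without 1 of the 4 vehicle libraries, the fewest without vehicle with JQ1 replicate 1, and 9 to 13 without 1 of the 8 agonist libraries. The median difference over the list was 0.44, beside -0.01 over all genes. Xirp2 and Xirp1, which bind actin at the disc, rose by 2.38 ± 0.53 (SE) and 0.87 ± 0.20. Synm, which encodes the intermediate filament protein synemin, rose by 1.08 ± 0.11. Without JQ1 the differences were 1.47 with ET-1 and 1.79 with PE. The level there was 5.46 and 5.65 in vehicle, 13.1 and 20.3 in ET-1, and 19.7 and 21.2 in PE. Under JQ1 Synm differed by 0.55 with ET-1 and 0.52 with PE, and neither passed in limma (adjusted p = 0.19 and 0.23). Synm also passed for each agonist alone without JQ1, and Pdlim3, Vasp and vinculin (Vcl) passed for PE. With the replicate number as a block, 13 of the 19 rose in ET-1 and 14 in PE, where 8.89% and 11.8% of all genes rose, with Ctnna1, Xirp1, Xirp2, Nrap and Zyx among them in both. Without 1 of the 4 compared libraries these counts were 4 to 11 in ET-1, the fewest without vehicle replicate 2 or ET-1 replicate 2, and 6 to 13 in PE, the fewest without PE replicate 2. In the averaged comparison with the block, 14 rose and 1 fell, where 19.8% of all genes rose and 21.7% fell. Alpha-catenin (Ctnna1), which joins the cadherin complex to actin, rose by 0.50 ± 0.14, and beta-catenin (Ctnnb1) was at -0.14 ± 0.07 (adjusted p = 0.20, and 0.039 with the block).

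JQ1 moved genes of this list both ways, 7 up and 5 down in the averaged JQ1 comparison, with a median of -0.19, and 4 up and 6 down on the deposited scale. With 30.2% of all genes rising and 29.9% falling there, these counts are near those of the whole table. With the block 7 rose and 8 fell, beside 36.6% and 36.9% of all genes. Ctnnb1 rose by 1.05 ± 0.07 (SE), from 147 to 186 in the 6 DMSO libraries to 295 to 375 in the 6 JQ1 libraries. Vasp, which promotes actin filament growth, fell by 1.20 ± 0.06, Pdlim3 by 1.28 ± 0.14 and the adhesion gene Nectin2 by 1.00 ± 0.11. Each of these 4 genes passed the test in vehicle, in ET-1 and in PE.

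**Figure D3:**
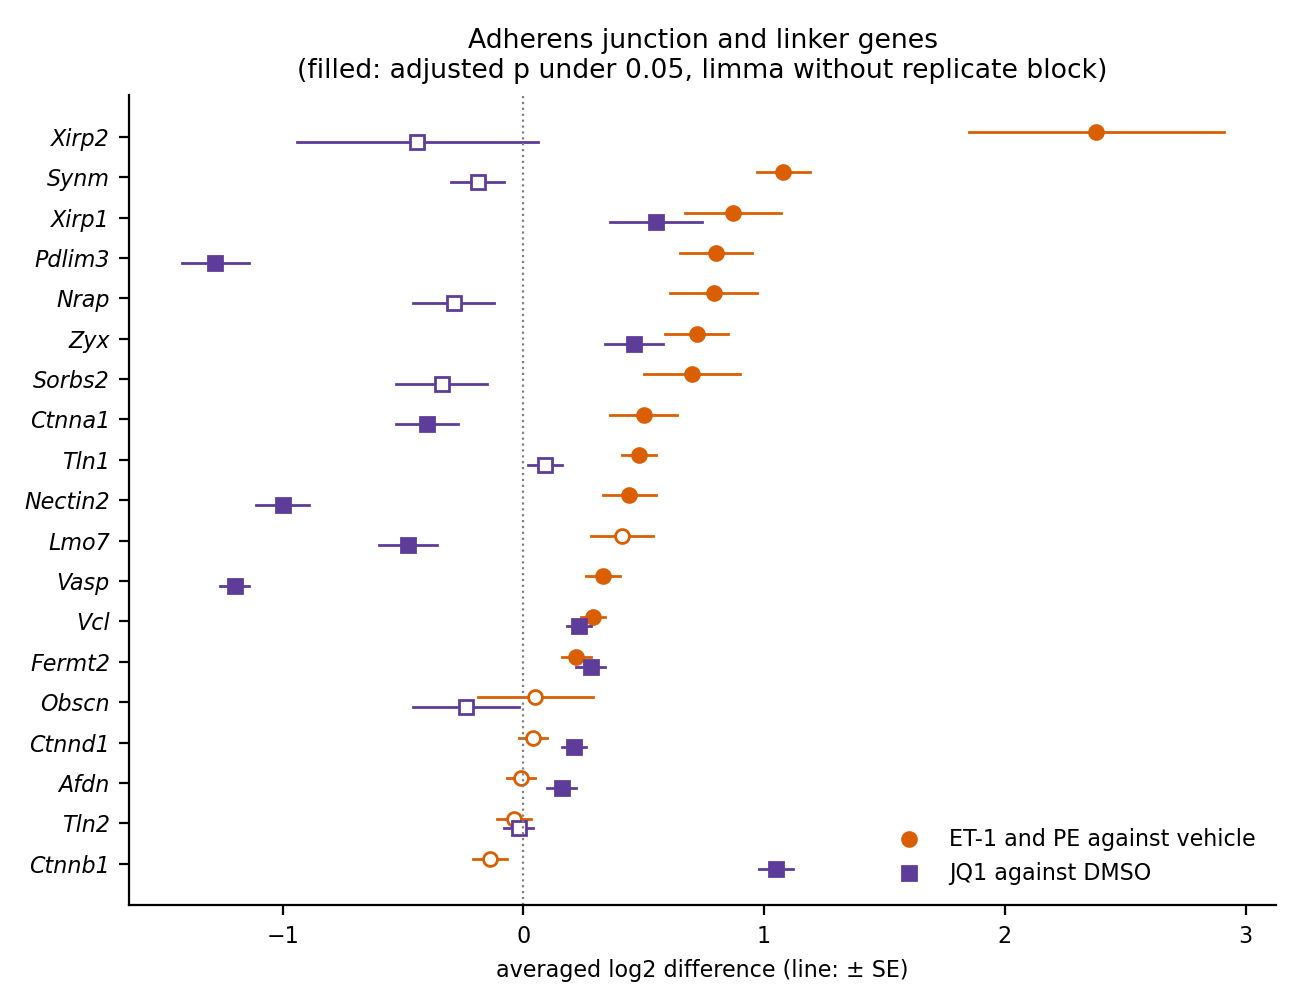
Averaged log2 difference (horizontal axis, with ± SE) of the 19 tested adherens junction and linker genes (vertical axis) for ET-1 and PE against vehicle (circles) and for JQ1 against DMSO (squares), filled where the adjusted p was under 0.05. The 13 filled circles lie above 0, and the filled squares lie on both sides of 0, 7 above and 5 below.

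The desmosome genes did not all move the same way: in the averaged agonist comparison Dsp and Dsg2 fell, Dsc2 rose and Jup did not pass the test. Dsp, on chromosome 17 (27286796 to 27334379, rn6), encodes desmoplakin, which anchors desmin filaments to the desmosome. Its level was 116 and 112 in vehicle, 74.1 and 76.9 in ET-1, and 68.1 and 68.5 in PE. In the presence of JQ1 it was 116 and 97.2 in vehicle, 84.9 and 48.2 in ET-1, and 70.9 and 50.4 in PE. All 8 agonist libraries (48.2 to 84.9) lay below the 4 vehicle libraries (97.2 to 116). In the averaged comparison Dsp fell by 0.72 ± 0.15 (SE), 0.607 times the vehicle level (adjusted p = 0.017). The call was lost without any 1 of the 4 vehicle libraries, with or without JQ1 (adjusted p from 0.051 to 0.065).

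Dsc2 and Dsg2 encode the 2 desmosomal cadherins of heart muscle, which pair across the gap between cells. The level of Dsg2 was 17.0 and 20.1 in vehicle, 13.6 and 17.4 in ET-1, and 15.1 and 16.4 in PE. With JQ1 it was 17.8 and 15.4 in vehicle, 12.8 and 9.89 in ET-1, and 13.4 and 11.6 in PE. Dsg2 overlapped between agonist and vehicle libraries, and its averaged fall by 0.35 ± 0.10 (SE; adjusted p = 0.047) was kept only without ET-1 replicate 2 or ET-1 with JQ1 replicate 1, in 2 of 12 fits that left out a library. Dsc2 was the lowest member, at 5.55 and 6.71 in vehicle, 8.48 and 10.9 in ET-1, and 8.65 and 10.5 in PE. Under JQ1 it was 6.54 and 5.43 in vehicle, 7.46 and 8.79 in ET-1, and 7.35 and 8.46 in PE. All 8 agonist libraries (7.35 to 10.9) lay above the 4 vehicle libraries (5.43 to 6.71). Dsc2 rose by 0.50 ± 0.10 in the averaged comparison (adjusted p = 0.015), a call lost without vehicle replicate 1 (adjusted p = 0.055) or vehicle with JQ1 replicate 2 (adjusted p = 0.067). The ratio of Dsc2 to Dsg2 was 0.327 to 0.368 in the vehicle libraries and 0.547 to 0.889 in the agonist libraries.

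Jup, which encodes plakoglobin, a member of the catenin family found in desmosomes and adherens junctions, was higher with JQ1. Its level was 39.0 and 60.3 in vehicle, 44.1 and 52.6 in ET-1, and 45.9 and 59.0 in PE. With JQ1 added it was 61.0 and 82.3 in vehicle, 63.9 and 62.7 in ET-1, and 66.7 and 67.4 in PE. The 6 JQ1 libraries (61.0 to 82.3) lay above the 6 DMSO libraries (39.0 to 60.3), the only 1 of the 9 members with no overlap there, where 36.4% of all genes tested had none. Jup rose by 0.43 ± 0.13 (SE) in the averaged JQ1 comparison (adjusted p = 0.020), and the averaged agonist difference was -0.04 (95% interval from -0.36 to 0.28). The call was lost without ET-1 replicate 1 (adjusted p = 0.055), PE replicate 1 (0.054) or vehicle with JQ1 replicate 2 (0.054). The longer of its 2 listed transcripts, of 4054 nt, took 36.6% to 99.3% of the level depending on the library, and with that transcript alone the averaged difference was -0.01.

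Of 15 partners of the desmosome and of intermediate filaments, 8 were tested. Desmin (Des), the filament protein that desmoplakin anchors, rose with the agonists by 0.89 ± 0.17 (SE; adjusted p = 0.012), from 665 and 891 in vehicle to 1117 and 1419 in ET-1 and 1057 and 1388 in PE. Plec, which encodes the linker plectin, rose by 0.78 ± 0.22 and Tmem43, a membrane protein gene linked to arrhythmogenic cardiomyopathy, by 0.56 ± 0.09 in the same averaged comparison, where 3 of the 8 rose and 0 fell (9.01% and 10.8% of all genes), and 5 rose with the block (19.8%). JQ1 lowered Perp, a desmosome-associated membrane protein gene, by 1.45 ± 0.10, from 131 to 169 in the DMSO libraries to 41.3 to 70.3 in the JQ1 libraries. In that comparison 1 of the 8 rose, Pkp4, and 3 fell, Perp, Tmem43 and Pkp1, beside 30.2% and 29.9% of all genes, and with the block desmin rose too. Pkp3, another plakophilin, was listed at 0 in all 12 libraries.

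Tjp1, which encodes the scaffold protein ZO-1 that binds connexin 43, was higher in most agonist libraries. Its level was 11.7 and 15.4 in vehicle, 13.6 and 19.9 in ET-1, and 16.5 and 19.4 in PE. In the JQ1 groups it was 15.4 and 15.3 in vehicle, 17.2 and 22.2 in ET-1, and 20.6 and 24.2 in PE. Only ET-1 replicate 1 (13.6) lay within the range of the vehicle libraries (11.7 to 15.4). The averaged agonist difference was 0.39 ± 0.13 (SE; adjusted p = 0.070), which passed with the replicate number as a block (adjusted p = 0.0045). The averaged JQ1 difference was 0.25 ± 0.12 (adjusted p = 0.11), which also passed with the block (adjusted p = 0.011).

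Of 19 channels and scaffolds known at the disc, 17 were tested. In the averaged agonist comparison 1 rose, Sntb1, and 3 fell, Kcnj12 by 1.15 ± 0.16 (SE), Kcnj2 by 0.76 ± 0.18 and Fgf13 by 0.60 ± 0.12, beside 9.01% of all genes that rose and 10.8% that fell. With the block 4 rose and 5 fell, beside 19.8% and 21.7%. Kcnj2 and Kcnj12 encode channels of the inward rectifier current that holds the resting potential. Kcnj12 was 14.8 and 19.5 in vehicle, 7.89 and 8.83 in ET-1, and 7.90 and 8.05 in PE. No gene of the list rose without vehicle replicate 1 or without vehicle with JQ1 replicate 1 (0 of 17), and 1 fell without replicate 2 of either group. With JQ1 5 of the 17 rose and 6 fell in the averaged comparison, and 3 rose and 7 fell on the deposited FPKM scale. The first counts are near the 30.2% and 29.9% of all genes that rose and fell. With the block 5 rose and 7 fell, beside 36.6% and 36.9% of all genes. Sntb1 fell with JQ1 (-1.81 in vehicle, -2 in ET-1 and -1.76 in PE, each ± 0.31). Ank2 passed as lower in vehicle (-1.91 ± 0.25) and ET-1 (-0.81 ± 0.25). Cav3, the caveolin of muscle, fell (-0.73 in vehicle, -1.38 in ET-1 and -1.72 in PE, each ± 0.14). The difference of the Cav3 effect, PE minus vehicle, was -0.99 and did not pass in limma (adjusted p = 0.51). Bves, a membrane protein gene of the disc, rose (0.93 in vehicle, 0.61 in ET-1 and 0.60 in PE, each ± 0.20).

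Of 19 other connexins and pannexins, 4 were tested. Gja3 was the highest, at 18.2 to 42.5, and 0 of the 4 passed in the averaged agonist comparison, where with the block the pannexin genes Panx1 (0.27) and Panx2 (-0.50) did. Panx2 fell with JQ1, at -1.26 ± 0.27 (SE) in vehicle, -0.96 ± 0.27 in ET-1 and -0.96 ± 0.27 in PE, from 1.36 to 3.57 in the DMSO libraries to 0.425 to 1.07 in the JQ1 libraries.

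Each agonist comparison taken alone, of 2 libraries against 2, called few members. In ET-1 against vehicle, limma called 0 of the 9 members, where 2.87% of all genes tested were called. At an unadjusted p under 0.05 stood 4 of the 9 and 20.3% of all genes. With a block for replicate number it called Dsc2, 0.61 higher (adjusted p = 0.019), where 18.4% of all genes were called. In PE against vehicle it again called 0 members (4 at an unadjusted p under 0.05, beside 23.1% of all genes), where 6.07% of all genes were called. With the block, where 24.0% were called, Gja5 (-1.74), Dsp (-0.73), Dsc2 (0.60) and Tjp1 (0.40) passed. Each of these 5 calls with the block was lost without any 1 of the 4 libraries compared.

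With JQ1 present in both arms, single agonist comparisons again called no member without the block. For ET-1 against vehicle under JQ1, limma called 0 members (5 at an unadjusted p under 0.05, beside 17.1% of all genes) beside 1.36% of all genes, and with the block Gja1 (-1.22) and Gja5 (-2.49) beside 11.6%. For PE against vehicle under JQ1 it called 0 members (6 at an unadjusted p under 0.05, beside 16.3% of all genes) beside 0.718% of all genes, and with the block Gja1 (-1.27), Dsp (-0.82) and Tjp1 (0.52) beside 12.1%. Of the 4 fits with the block that left out 1 of the compared libraries, the ET-1 call was kept in 1 for Gja1 and 2 for Gja5, and the PE call in 0 for Gja1, 0 for Dsp and 1 for Tjp1. ET-1 and PE were not separated by any member. In PE against ET-1, limma called 0 members, with 0 at an unadjusted p under 0.05, and 0.00725% of all genes, which is 1 gene. The member differences ran from -0.14 to 0.12, and the 95% interval was -0.79 to 0.80 for Gja1 and -1.18 to 1.09 for Gja5.

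In the averaged agonist comparison with the block, the calls of Gja1, Gja5, Dsp, Dsc2 and Tjp1 were each kept in all 12 fits that left out 1 library, and that of Dsg2 in 7. These 6 members, 2 higher and 4 lower, stand beside 19.8% of all genes higher and 21.7% lower in the same fit.

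**Figure D4:**
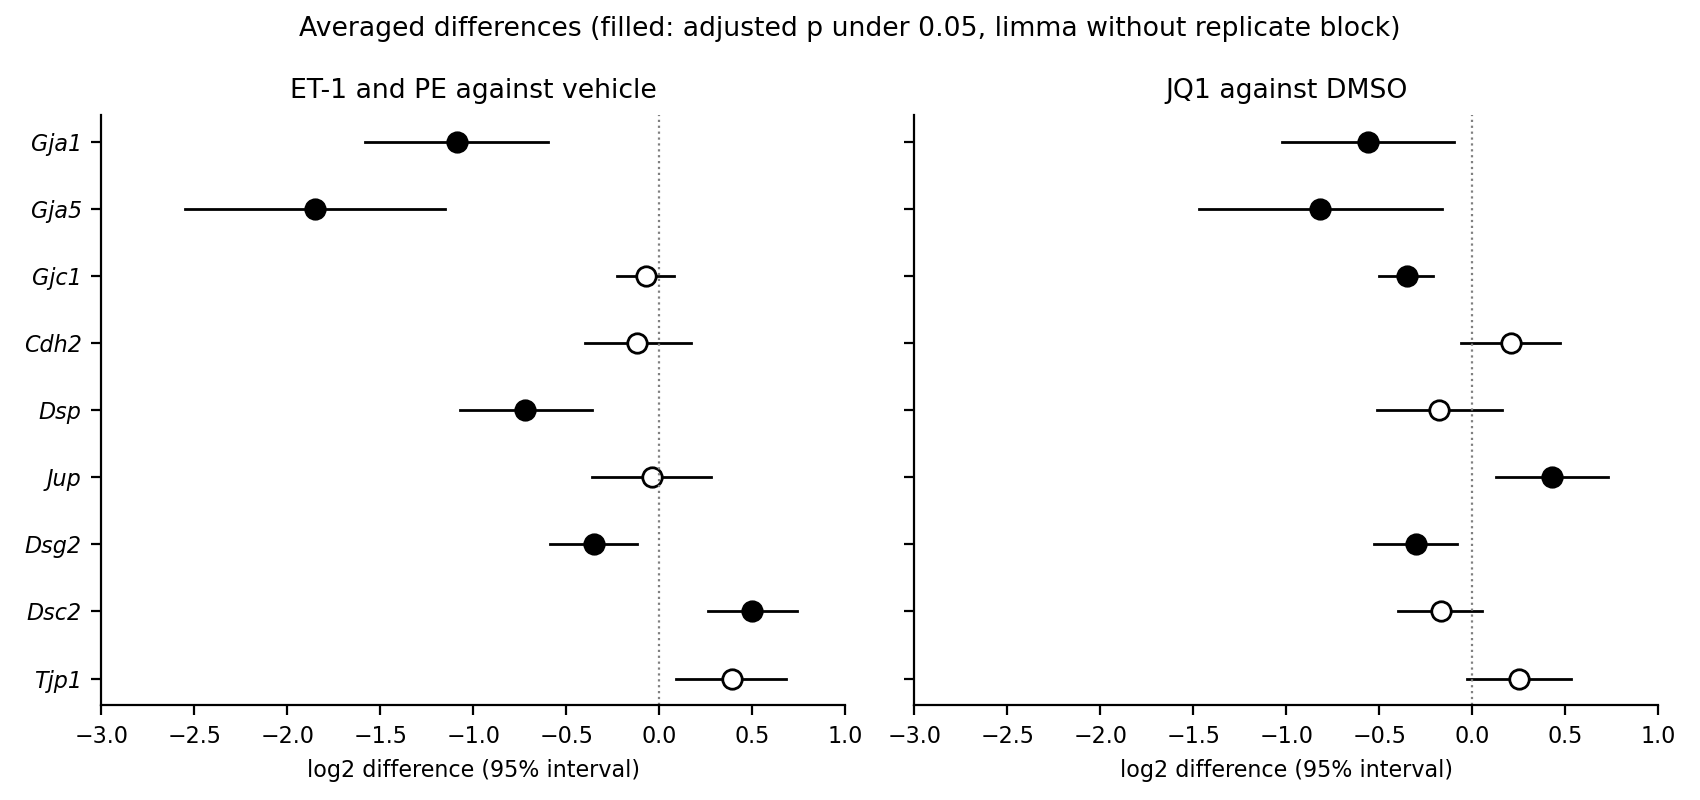
Averaged log2 difference with its 95% interval (horizontal axis) of the 9 members (vertical axis) for ET-1 and PE against vehicle (left) and JQ1 against DMSO (right), filled where the adjusted p was under 0.05 in limma without the replicate block. On the left Gja1, Gja5, Dsp and Dsg2 are lower and Dsc2 higher, and on the right Gja1, Gja5, Gjc1 and Dsg2 are lower and Jup higher.

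Averaged over the 3 treatments, JQ1 lowered Gja1, Gja5, Gjc1 and Dsg2 and raised Jup. The 4 members that fell stand beside 29.9% of all genes tested that fell, and the 1 that rose beside 30.2%, so these shares are near those of the whole table. Of all genes called there, 50.3% rose, and 39.7% on the deposited scale. Gjc1 fell by 0.35 ± 0.06 (SE; adjusted p = 0.0016), a call kept without any 1 of the 12 libraries. Only its shorter transcript was lower in every JQ1 library than in every DMSO library. Gja5 fell by 0.82 ± 0.29 (adjusted p = 0.037), a call kept only without ET-1 replicate 2, PE replicate 2, vehicle with JQ1 replicate 2 or ET-1 with JQ1 replicate 1. Gja1 fell by 0.56 ± 0.20 (adjusted p = 0.040), a call kept only without vehicle, ET-1 with JQ1 or PE with JQ1 replicate 1. Dsg2 fell by 0.30 ± 0.10 (adjusted p = 0.025), a call lost without any 1 of the 6 libraries of replicate 2 (adjusted p from 0.060 to 0.067).

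In single treatments, limma called 0 members for JQ1 in vehicle (1 at an unadjusted p under 0.05, beside 43.5% of all genes) beside 32.0% of all genes, and with the block Jup (0.54) beside 52.8%. For JQ1 in ET-1 it called Gjc1 beside 37.5% of all genes, and with the block Gjc1 and Gja5 (-1.43) beside 56.9%. For JQ1 in PE it called Gjc1 beside 36.5%, and Gjc1 alone with the block beside 56.4%. Of the 4 fits with the block that left out a compared library, 2 kept the call of Jup in vehicle, 2 each those of Gja5 and Gjc1 in ET-1, and 4 that of Gjc1 in PE. In the averaged JQ1 comparison with the block, Gjc1, Jup and Tjp1 kept their calls in all 12 such fits, Gja1 in 8, and Gja5 and Dsg2 in 6 each. In that fit 36.6% of all genes rose and 36.9% fell, beside 2 and 4 of the 9 members. No member's JQ1 effect differed between an agonist and vehicle by the test of that difference. Limma called 0 members and 0.0% of all genes for ET-1 minus vehicle and 0.0% for PE minus vehicle, with 0 members and 616 and 717 genes at an unadjusted p under 0.05. The intervals were wide, from -2.40 to 0.82 for Gja5 in ET-1 minus vehicle.

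The JQ1 differences of several members were unlike in the 2 replicates. Within replicate 2, JQ1 against DMSO was -0.66, -1.09 and -1.01 for Gja1 in vehicle, ET-1 and PE, and within replicate 1 it was -0.04, -0.18 and -0.36. Dsp was -0.20, -0.67 and -0.44 in replicate 2 against 0.00, 0.20 and 0.06 in replicate 1. Dsg2 was -0.37, -0.78 and -0.49 in replicate 2 and 0.07, -0.08 and -0.17 in replicate 1. Gja5 went the other way, at -1.10, -1.45 and -0.96 in replicate 1 and -0.17, -1.41 and 0.21 in replicate 2. For the agonists both replicates gave the same sign for Gja1, Gja5, Dsp, Dsg2, Dsc2 and Tjp1 in the averaged comparison. There Gja1 was -0.77 in replicate 1 and -1.41 in replicate 2, and Gja5 -1.18 and -2.52. A term for replicate number times JQ1, added to the block after these values were seen, called 0 of the 9 members and 0.276% of all genes. At an unadjusted p under 0.05 stood 4 members, Gja1, Cdh2, Dsp and Dsg2, and 14.3% of all genes, and the difference for Dsg2, replicate 2 minus replicate 1, was -0.49 ± 0.09 (SE; adjusted p = 0.11). The same term for the agonists called 0 members and 0.0% of all genes in limma, with 3 members, Gja5, Gjc1 and Jup, and 17.3% of all genes at an unadjusted p under 0.05.

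**Figure D5:**
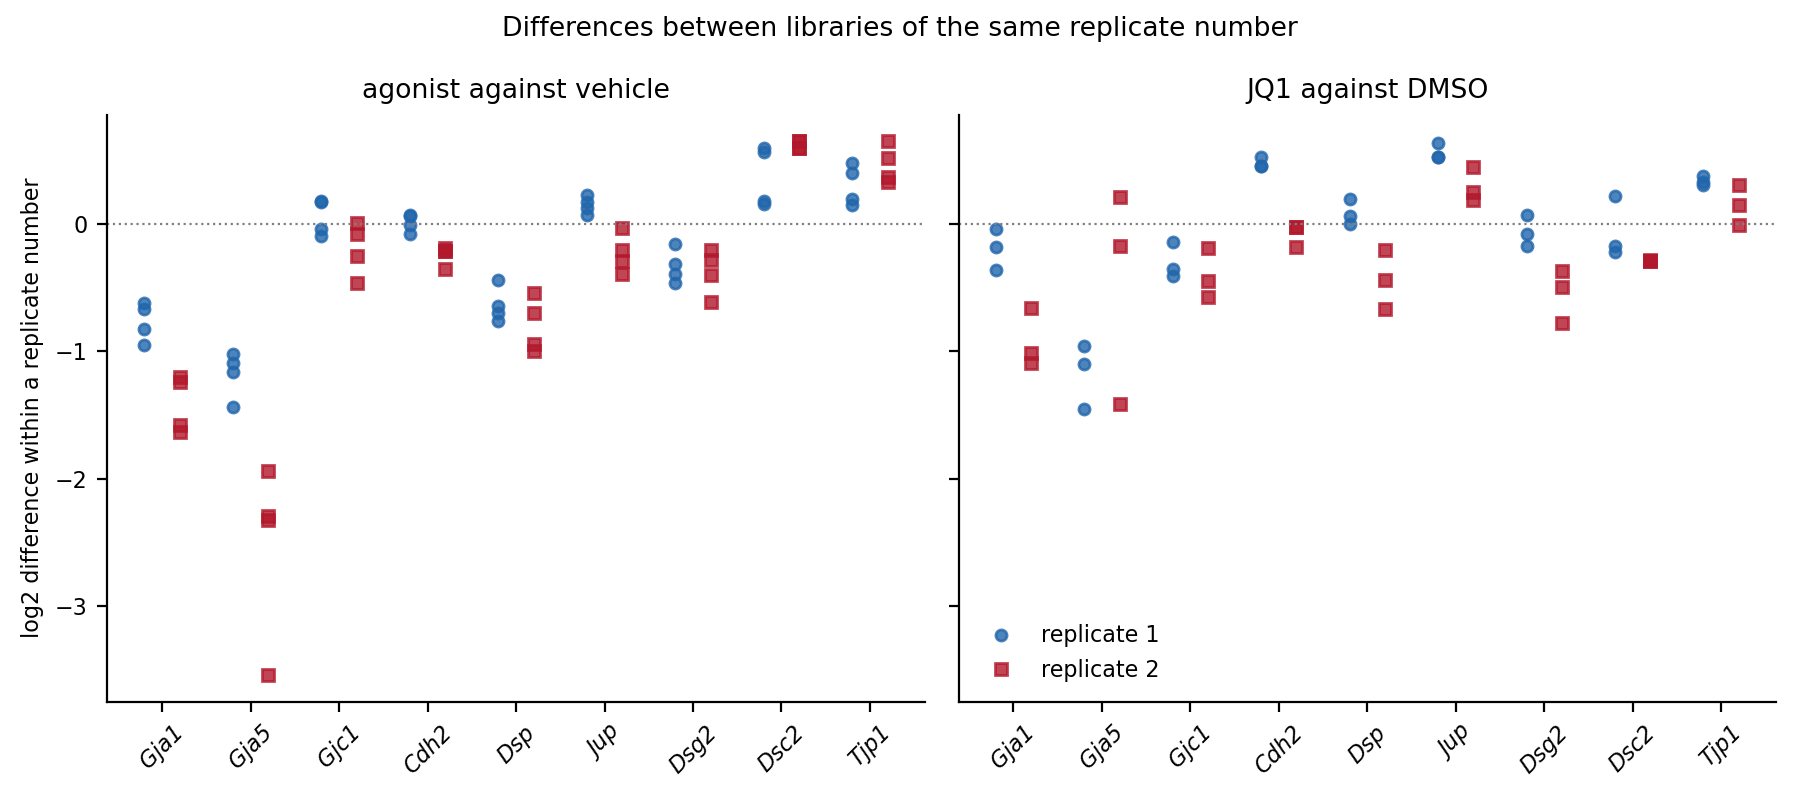
Log2 difference between libraries of the same replicate number (vertical axis) for each member (horizontal axis), for the 4 agonist comparisons (left) and the 3 JQ1 comparisons (right), with replicate 1 as circles and replicate 2 as squares. The JQ1 differences of Gja1 lie between -0.36 and -0.04 in replicate 1 and between -1.09 and -0.66 in replicate 2.

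Marker sums of several other cell types moved with the replicate number and with JQ1. The summed level of 10 fibroblast markers was 513 to 1351 in the 6 libraries of replicate 1 and 112 to 332 in those of replicate 2. Within replicate 1 it was 891 to 1351 with DMSO and 513 to 667 with JQ1, and within replicate 2 it was 217 to 332 and 112 to 150. All 10 markers were lower with JQ1 with the replicate block in each treatment, and 0 of 10 were called without it. Of all 13793 genes tested, 3851 were lower with the block in vehicle, 4109 in ET-1 and 4102 in PE. Without the block 2299, 2697 and 2615 were lower. With the block, 7 of 10 markers were also lower in ET-1 and 4 of 10 in PE against vehicle, where 1311 and 1687 of all genes were lower. Epicardial markers summed to 24.6 to 30.6 with DMSO and 10.9 to 14.9 with JQ1 in replicate 1, and to 8.90 to 13.3 and 4.88 to 6.21 in replicate 2. Macrophage markers, with Cd163 at 0 in every library, were at 7.23 to 9.36 and 3.22 to 4.11 in replicate 1, and at 2.44 to 4.17 and 0.490 to 0.760 in replicate 2. The endothelial sum was higher with JQ1, 9.43 to 10.3 against 8.44 to 9.01 in replicate 1 and 6.03 to 7.65 against 4.06 to 4.59 in replicate 2. Of the 4 endothelial markers tested, only Egfl7 rose with JQ1, by 1.25 in vehicle, 0.96 in ET-1 and 1.11 in PE. In the same order Kdr was at -1.08, -0.98 and -0.80, Tek at -0.87, -0.62 and -0.78, and Tie1 at -0.35, -0.27 and -0.24. Kdr and Tek passed in each treatment only with the block. Smooth muscle and mural markers summed to 717 to 852 with DMSO and 686 to 797 with JQ1 in replicate 1. In replicate 2 they summed to 420 to 749 and 382 to 588, so the sums overlapped between DMSO and JQ1 and between the replicates. Fibroblasts also express Gja1, Cdh2 and Tjp1, and the part of these cells in the member results was not tested. The defining markers of the labelled cell type were present in every library, the 7 cardiomyocyte markers found summing to between 8971 and 19536. That sum was higher with JQ1 as well, 13387 to 16518 against 8971 to 9504 in replicate 1 and 13314 to 19536 against 10732 to 12394 in replicate 2. In the averaged JQ1 comparison 1 of the 7 rose and 2 fell (3 with the block). Without the block 30.2% of all genes rose and 29.9% fell there. The part of the cardiomyocyte sum in the member results was not tested.

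The genes whose levels ran most like those of the members were named by the Pearson correlation of log2 levels over the 12 libraries, among 9348 genes with a mean of at least 5. For Gja1 these were Pfkm (0.983), Ptp4a3 (0.978) and Tspan18 (0.972), and for Gja5 Lpar1 (0.947) and Scp2 (0.940). For Dsp they were Ptprf (0.967), Lama2 (0.960) and Plcg1 (0.957), and for Dsc2 St3gal2 and Rnf115 (both 0.960). For Gjc1 the closest was Atp5mc3 (0.972), for Dsg2 Ddc (0.977), for Jup Isca1 (0.965), for Tjp1 Mmgt1 (0.978) and for Cdh2 Adnp (0.920). Among the members, Gja1 ran with Dsp (0.944), Dsg2 (0.896) and Gja5 (0.829) and against Tjp1 (-0.801), and Jup ran with none of the connexins (-0.413 to -0.155). The 12 points share the groups and the replicate numbers, so these values describe the libraries and carry no test.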

How the data were processed

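RNA was purified on columns, and stranded libraries were made after removal of ribosomal RNA, per the labels' protocols. The submitters' processing notes list the build rn6 (Rnor_6.0) and the tools STAR (2.7.1a), Trim Galore (0.6.0), DESeq2 (1.24.0) and StringTie (1.3.4d). Each deposited table held the mean coverage (signal) per base and the FPKM of 41078 transcripts, per the file headers. In FPKM the authors' values are divided by transcript length and library total. The sources used here do not state whether reads were assigned by strand. Only Gjc1 overlapped another gene, AABR07030502.1, which was at 0 on average.

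Transcript FPKM values were added up per gene, then divided by a median-of-ratios factor for each library (15551 genes, factors of 0.873 to 1.127). The 13793 genes that reached 1 FPKM in 2 or more libraries were fitted together in limma 3.58.1 (R 4.3.3), with robust moderation of a trended variance, a mean for each of the 6 groups, and log2 values after adding 0.5, which understates changes of low genes. Benjamini-Hochberg adjustment ran over all these genes for each comparison, and 0.05 was the threshold. Figures used Python 3.11.15 and matplotlib 3.10.9. In data simulated for JQ1 in vehicle, with 200 of 13793 genes altered, 65% of those altered by 1 on the log2 scale and 86% of those altered by 2 were found, beside 9 false calls. The real comparison called 32.0% of all genes, a far larger share, so these rates may not hold for it. No other comparison was simulated.

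Same-numbered libraries deviated together in all 15 pairs of groups (correlations of 0.16 to 0.67), and the replicate number was taken to pair libraries on this ground alone, since no label says what a number shares. The fit with the number as a block is given where it changed a call in a comparison described here, and as counts for the lists of disc genes. The members and gene lists were chosen with earlier results of these data known. Some genes of the list of channels and scaffolds are not reported here and were left out of its counts. From a list, genes past the threshold in at least 1 of 10 comparisons could be named, up to 6 per comparison, and genes named from the 2 averaged comparisons or for their level were chosen after their values were seen. Alternatives were the deposited scale, a per-million scale over genes of at least 400 nt, pseudocounts of 0.1 and 1, no filter, a filter at 5 FPKM, the block, only the compared groups, the highest transcript of a gene, leaving out each library and, added later, a term for replicate number times JQ1 or agonist.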

Additional observations from a re-analysis of the deposited data

How the results depend on the processing

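With the replicate block the count of members called became 1 for ET-1 against vehicle, 4 for PE against vehicle, 1 for JQ1 in vehicle, 2 for JQ1 in ET-1, 2 for ET-1 under JQ1 and 3 for PE under JQ1. It changed no other count of members by over 1.5 times. Leaving out 1 library moved the counts without the block to 0 to 1 for JQ1 in vehicle, 0 to 3 for JQ1 in ET-1, 0 to 1 for JQ1 in PE, 0 to 2 for ET-1 under JQ1, 2 to 6 for the averaged agonists and 2 to 6 for the averaged JQ1 effect. With the block these ranges were 0 to 1 for ET-1, 0 to 1 for PE, 0 to 2 for JQ1 in vehicle, 1 to 5 for JQ1 in ET-1, 0 to 4 for ET-1 under JQ1 and 0 to 3 for PE under JQ1. For JQ1 in ET-1, a pseudocount of 0.1 and the filter at 5 FPKM each gave 2 members, and only the compared groups (fewer libraries) and the highest transcript each gave 0. The highest transcript gave 0 for JQ1 in PE and 3 for the averaged JQ1 effect, no filter gave 3 for the latter, and the filter at 5 FPKM gave 1 for ET-1 under JQ1. With the highest transcript the averaged JQ1 difference of Jup became -0.01. The cause of the other changes was not tested. Over all genes, leaving out a library gave 0 to 47 calls in place of 396 for ET-1 and 3 to 144 in place of 837 for PE, 0 to 280 in place of 187 for ET-1 under JQ1, 0 to 3 in place of 99 for PE under JQ1 and 1006 to 3306 in place of 2733 for the averaged agonists. Fits on only the compared groups gave 0 for each of the 4 agonist comparisons and 2933, 2346 and 3124 in place of 4411, 5168 and 5030 for JQ1 in vehicle, ET-1 and PE. On the deposited scale the median of all genes was -0.11 for the averaged agonists, and no averaged member difference changed sign. Read counts per gene were not used, so the precision at a given depth is known only from the spread between libraries.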

Other observations

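Of 15 transcription factors of the conduction system and the chambers, 12 were tested. JQ1 lowered Irx3, a homeobox gene needed for ventricular conduction, with log2 differences of -1.75 in vehicle, -2.13 in ET-1 and -2.15 in PE, each ± 0.34 (SE). Irx3 was 15.1 to 22.4 rescaled FPKM in the 6 DMSO libraries and 2.21 to 6.33 in the 6 JQ1 libraries. Hey2, which encodes a transcriptional repressor found in the ventricular wall, rose with JQ1 by 0.93 ± 0.11, 0.82 ± 0.11 and 0.84 ± 0.11. Its level was 5.22 to 6.39 with DMSO and 10.2 to 11.8 with JQ1. Mef2c, a regulator of muscle genes, fell (-0.57, -0.60 and -0.60, each ± 0.18) in the same 3 comparisons. Hopx, a homeodomain protein gene of cardiac muscle, was -1.07 with ET-1 (adjusted p = 0.066, and 0.023 with the replicate block) and fell with PE by 1.16 ± 0.26, with ET-1 under JQ1 by 1.68 ± 0.26 and with PE under JQ1 by 1.68 ± 0.26. It was 32.4 and 33.1 in vehicle, 17.6 and 13.3 in ET-1, 15.9 and 12.9 in PE, and 5.78 to 8.60 in the 4 libraries with an agonist and JQ1.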
